A study of Mus musculus with 2 samples.

Results

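The cells described here are tumour-infiltrating neutrophils in which the transcripts of 3 inflammatory cytokine genes, Il1a, Tnf and Il23a, together made up 0.5% or more of all the unique molecular identifiers (UMIs, each marking 1 captured RNA molecule). They were 249 cells, 23 from the non-responding and 226 from the responding tumours, among 2298 neutrophils and 5187 retained cells in a series of 7951 barcodes. Retention required that a barcode had between 500 and 5000 genes with a UMI, and that mitochondrial transcripts took no more than 10% of its UMIs. It counted as a neutrophil where S100a8 and S100a9 made up at least 1.5% of its UMIs and C1qa, C1qb, C1qc and Apoe less than 0.5%. Members also had to hold less than 0.6% of Isg15, Rsad2, Ifit1, Ifit3, Cmpk2 and Usp18, so that strongly interferon-stimulated neutrophils (54 cells in 4T1P and 204 in 4T1M) were left out. These measured values chose the members, so the levels of the genes in the rule are given below as descriptions only. The cells are called inflammatory neutrophils in what follows, and the comparison group is the other 589 neutrophils of 4T1P and the other 1460 of 4T1M.

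Both libraries held GR1+ cells from untreated 4T1 tumours, a mouse mammary carcinoma model, in BALB/c mice aged 6 to 8 weeks with an intact immune system. 4T1P is the parental line, which does not respond to anti-PD1, and 4T1M is a clone derived from it by chemical mutagenesis that does respond. GR1 is an epitope shared by Ly6G and Ly6C, so the magnetic isolation takes neutrophils and monocytes together. Cells of several mice were pooled into 1 library per tumour line, 5 mice by the deposited design text, and a smaller pool is given elsewhere in the study's description. With 1 library per line there are no replicates, so no test between conditions was possible, and tumour line, clone and library cannot be told apart. Every interval given is a 95% exact interval that covers counting error only.

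Neutrophils make interleukin-1 and tumour necrosis factor quickly when receptors for microbial or damage signals activate the transcription factor NF-kB. Interleukin-1 alpha acts as an alarm signal on surrounding cells, TNF activates endothelium and other leukocytes, and Il23a encodes the p19 subunit that pairs with the p40 subunit to form interleukin-23. Developing neutrophils load their granules in sequence in the bone marrow, and the transcripts of granule proteins such as Camp, Ngp and Ltf are lost as the cells mature and leave for the blood. Neutrophils that have entered a tumour can live longer than those in blood and change their gene expression there.

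The promoters of 6 genes on which the results turn show which NF-kB and AP-1 sequences lie beside the gate genes Il1a and Tnf and beside genes that differed in these cells. Each is the RefSeq window of 300 bases, 250 before the annotated start and 50 after it, written 5′ to 3′ on the strand of the gene, in assembly GRCm38.p6: Il1a at chr2:129309923-129310222 (minus strand), Tnf at chr17:35201958-35202257 (minus), Cxcl1 at chr5:90890995-90891294 (plus), Cxcl2 at chr5:90903649-90903948 (plus), Bcl2a1b at chr9:89199023-89199322 (plus) and Camp at chr9:109849407-109849706 (minus). Capitals mark matches to the NF-kB consensus or to the AP-1 motif TGANTCA on either strand.
Il1a: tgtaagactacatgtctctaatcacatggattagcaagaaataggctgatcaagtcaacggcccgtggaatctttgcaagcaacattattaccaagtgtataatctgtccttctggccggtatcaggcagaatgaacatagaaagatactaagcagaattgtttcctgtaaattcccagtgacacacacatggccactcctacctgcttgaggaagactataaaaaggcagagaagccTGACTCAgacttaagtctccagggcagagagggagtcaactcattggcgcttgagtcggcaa
Tnf: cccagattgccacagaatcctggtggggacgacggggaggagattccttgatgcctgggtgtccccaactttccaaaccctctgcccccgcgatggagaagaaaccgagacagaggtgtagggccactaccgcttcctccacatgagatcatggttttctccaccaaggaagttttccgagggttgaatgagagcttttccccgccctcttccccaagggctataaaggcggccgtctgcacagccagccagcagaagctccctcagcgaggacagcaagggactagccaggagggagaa
Cxcl1: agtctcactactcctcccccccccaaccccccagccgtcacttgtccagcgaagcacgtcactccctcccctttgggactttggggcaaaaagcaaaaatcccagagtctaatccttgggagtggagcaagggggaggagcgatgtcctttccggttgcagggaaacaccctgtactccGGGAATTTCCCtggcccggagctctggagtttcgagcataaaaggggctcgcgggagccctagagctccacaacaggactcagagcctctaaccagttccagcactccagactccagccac
Cxcl2: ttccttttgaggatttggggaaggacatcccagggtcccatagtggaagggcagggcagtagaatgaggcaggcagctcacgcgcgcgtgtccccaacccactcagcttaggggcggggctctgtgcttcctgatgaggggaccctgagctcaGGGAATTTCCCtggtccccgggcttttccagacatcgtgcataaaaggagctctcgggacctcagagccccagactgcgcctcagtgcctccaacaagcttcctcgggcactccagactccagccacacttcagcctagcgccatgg
Bcl2a1b: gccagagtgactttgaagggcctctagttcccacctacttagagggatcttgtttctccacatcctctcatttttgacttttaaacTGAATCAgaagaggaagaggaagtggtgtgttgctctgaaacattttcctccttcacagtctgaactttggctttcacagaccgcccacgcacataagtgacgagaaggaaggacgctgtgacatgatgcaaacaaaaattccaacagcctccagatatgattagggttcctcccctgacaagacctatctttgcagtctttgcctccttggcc
Camp: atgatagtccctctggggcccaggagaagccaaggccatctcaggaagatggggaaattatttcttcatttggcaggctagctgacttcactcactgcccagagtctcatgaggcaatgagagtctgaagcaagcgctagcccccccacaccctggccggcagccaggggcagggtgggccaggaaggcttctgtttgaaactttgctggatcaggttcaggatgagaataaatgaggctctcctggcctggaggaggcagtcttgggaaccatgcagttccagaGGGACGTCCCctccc
The windows of Cxcl1 and Cxcl2, neighbouring genes on chromosome 5, each held 2 overlapping matches to the NF-kB consensus, the first starting 71 bases and 97 bases before the start. Those of Il1a and Bcl2a1b each held 1 AP-1 match, that of Tnf held neither set of letters, and that of Camp held 1 NF-kB match 35 bases after its start.

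Il1a carried most of the gate. It made up 55.1% of the gate UMIs in 4T1P (51.5% to 58.6%, 432 of 784) and 68.2% in 4T1M (67.1% to 69.2%, 5080 of 7451), Tnf made up 39.5% and 27.8%, and Il23a 5.36% and 4.05%. A median inflammatory neutrophil held 27 gate UMIs in either library, over a range of 9 to 80 in 4T1P and 7 to 113 in 4T1M. Il1a was found in 23 of 23 members of 4T1P and 224 of 226 of 4T1M, Tnf in 19 and 197, and Il23a in 11 and 107. Il1a and Tnf were found together in 82.6% and 86.3% of members, and all 3 genes in 43.5% and 42.9%. T cells, which should lack Il1a, had Il1a in 10.0% and 8.75% of cells and Tnf in 8.57% and 12.5%, at median depths of 5933.5 and 5394 UMIs against 3519 and 3044 in the members.

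In counts per 1000000 UMIs (CPM), Il1a stood at 4518 in the members and 490 in the other neutrophils of 4T1P, and at 6009 and 973 in those of 4T1M. Tnf stood at 3242 and 175 in 4T1P and at 2448 and 435 in 4T1M. Il23a, the least abundant of them by UMIs, stood at 439 and 27.4 in 4T1P and at 357 and 58.6 in 4T1M. These differences follow from the rule. The other neutrophils of 4T1M held higher levels of all 3 genes than those of 4T1P.

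**Figure D1:**
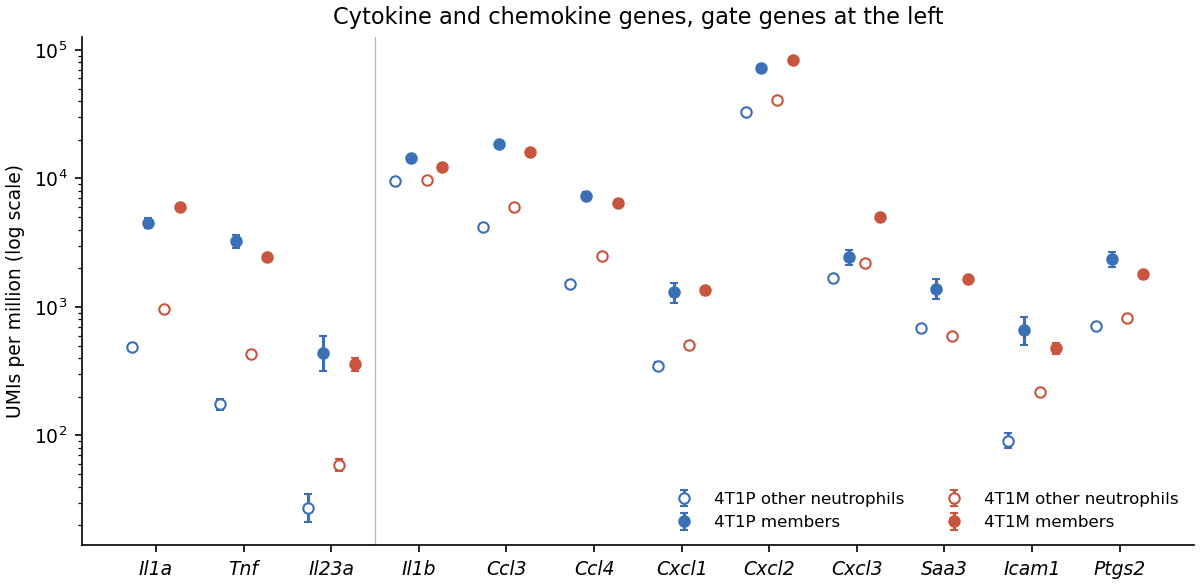
Levels of the 3 gate genes (left of the line) and of 9 further genes, in CPM on a log scale, for members (filled) and other neutrophils (open) of 4T1P (blue) and 4T1M (red). Bars are 95% exact Poisson intervals, counting error only, and among the 9 further genes Icam1 shows the widest gap between members and others in 4T1P, at 659 against 91.0.

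The label was checked against markers that the rule did not use. Members carried the neutrophil genes Csf3r, the G-CSF receptor (460 CPM in 4T1P and 683 in 4T1M), Cxcr2, the receptor for Cxcl1 and Cxcl2 (251 and 273), Hdc, which makes histamine (1266 and 1117), Mmp9 (356 and 343) and G0s2 (6066 and 3665). Retnlg and Ly6g, neutrophil genes of the same check, were much lower in members than in the other neutrophils. Retnlg stood at 805 against 7723 CPM in 4T1P and 755 against 6222 in 4T1M, and Ly6g at 52.3 against 319 and 21.3 against 261. In the macrophage gate (C1qa, C1qb, C1qc and Apoe at 0.5% or more) Csf3r stood at 35.9 and 80.1 CPM and Cxcr2 at 3.83 and 18.6. C1qa, a macrophage gene held down by the rule, stood at 62.8 and 49.7 CPM in members against 3690 and 3777 there. Of the cell type markers named with the rule, Ccl3, Cxcl1, Saa3, Car4 and Schip1 were at least 2-fold higher in members of both libraries and Cxcl3 was so in 4T1M alone. Those markers were picked from earlier results of these data and are no independent check. Members had similar depths to the other neutrophils: the median was 3519 UMIs against 3031 in the other neutrophils of 4T1P, and 3044 against 2946 in 4T1M. Their S100a8 and S100a9 share was lower, with a median of 3.43% against 10.3% in 4T1P and 3.80% against 8.64% in 4T1M. No member barcode was among the 5 barcodes that both libraries share.

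Inflammatory neutrophils made up 3.76% of the neutrophils of 4T1P (2.40% to 5.59%, 23 of 612) and 13.4% of those of 4T1M (11.8% to 15.1%, 226 of 1686). The plot of shares by threshold counts all neutrophils, interferon-high cells included, so its values at 0.5% are 4.25% in 4T1P and 15.5% in 4T1M. That share was higher in 4T1M at every threshold tried. At 0.1% of UMIs or more it was 24.7% of all neutrophils against 49.5%, at 0.3% it was 8.17% against 25.1%, and at 1% it was 1.14% against 4.74%. At 2% only 1 cell of 4T1P and 10 of 4T1M remained, and the intervals of the shares overlapped. No gap in the distribution set the members off: 9 neutrophils of 4T1P and 57 of 4T1M lay from 0.4% to just under 0.5%, and 6 and 50 members lay from 0.5% to under 0.6%. The other neutrophils also held more gate UMIs in 4T1M, and more cells past a fixed threshold cannot be told apart here from a higher level in all cells.

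**Figure D2:**
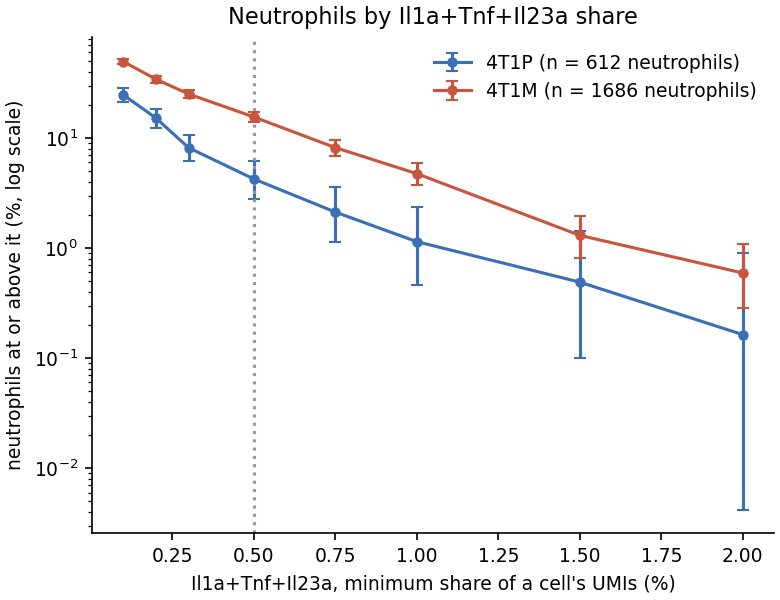
Percent of all neutrophils (log scale), interferon-high cells included, whose Il1a+Tnf+Il23a share of UMIs was at or above the value on the x axis. 4T1P is blue and 4T1M red, with 95% exact binomial intervals and the 0.5% threshold as a dotted line. The 4T1M curve lies above the 4T1P curve throughout, and the intervals overlap at 1.5% and 2%.

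Outside the rule, inflammatory neutrophils differed from the other neutrophils in a limited set of genes that reached across chemokines, survival genes and granule genes. Of 5570 genes with at least 20 UMIs in each library, 136 (2.44%) were at least 2-fold higher in members of both libraries and 80 (1.44%) at least 2-fold lower. For 75 of the higher and 55 of the lower genes the counting intervals of both libraries also lay off 0. The scaling moved this split: with the TMM factors of edgeR every log2 ratio dropped by 0.38 in 4T1P and dropped by 0.15 in 4T1M, which left 76 genes higher and 162 lower. All of the 76 had passed before, and all of the earlier 80 were among the 162. The median log2 ratio over all 5570 genes was then -0.37 in 4T1P and -0.05 in 4T1M. The few 4T1P members also matter: with the member cell that held the most UMIs of a gene left out for that gene, 48 genes were higher and 128 lower. This takes away each gene's highest count by construction, and the medians over all genes were then -0.71 in 4T1P and -0.04 in 4T1M.

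**Figure D3:**
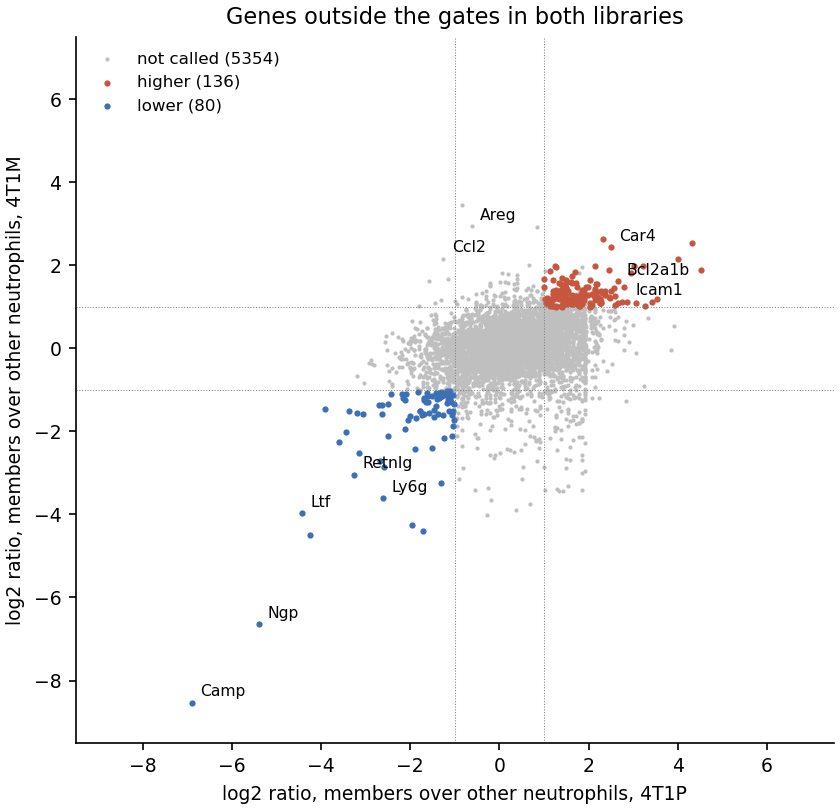
Each point is 1 of the 5570 genes, with the log2 ratio of members over other neutrophils in 4T1P on the x axis and in 4T1M on the y axis. Red and blue points are at least 2-fold higher (136) or lower (80) in both libraries, dotted lines mark 2-fold, and a group with no UMI is drawn at a floor of 3 UMIs, which makes the edge near 1.9 in 4T1P.

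The CC chemokines Ccl3 and Ccl4 were higher in inflammatory neutrophils of both libraries. Ccl3, which attracts monocytes and T cells, stood at 18408 CPM in members and 4171 in the other neutrophils of 4T1P (log2 ratio 2.14, 2.07 to 2.22) and at 16032 and 6024 in 4T1M (1.41, 1.38 to 1.44). It was found in 22 of 23 and 222 of 226 members, and with all cells thinned to 1000 UMIs in 95.7% of members against 67.6% of other neutrophils and 4.29% of T cells in 4T1P, and in 93.4%, 76.8% and 6.33% in 4T1M. Its neighbour on chromosome 11, Ccl4, gave log2 ratios of 2.29 (2.17 to 2.40) and 1.37 (1.33 to 1.42). In all, 3 of the 8 CC chemokines assessed passed 2-fold in both libraries, Ccl3, Ccl4 and Ccl24, against 2.44% of all genes, with list medians of 0.94 in 4T1P and 1.39 in 4T1M beside 0.01 and 0.10 over all genes. Ccl24 had UMIs in only 2 members of 4T1P. The medians were 0.56 and 1.24 with TMM factors, beside -0.37 and -0.05 over all genes. Without the richest member cell of each gene the 4T1P median was -0.46, beside -0.71 over all genes. In that setting 2 of 8 passed, beside 48 of 5570 genes. Ccl2 and Ccl7, which attract monocytes, gave 2.16 and 3.46 in 4T1M but -1.25 (-3.14 to 0.12) and -0.84 (-6.17 to 1.71) in 4T1P, where members held 4 and 1 UMIs of them.

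Of the CXC chemokines that recruit neutrophils through Cxcr2, Cxcl1 and Cxcl2 were higher as well. Cxcl2 stood at 72890 CPM in members and 33165 in the other neutrophils of 4T1P (1.14, 1.10 to 1.17) and at 83160 and 40846 in 4T1M (1.03, 1.01 to 1.04), and it was found in every member. Cxcl1 stood at 1297 against 350 CPM in 4T1P (1.89, 1.61 to 2.16) and at 1349 against 510 in 4T1M (1.40, 1.30 to 1.5). In 4T1P 54.8% of the members' Cxcl1 UMIs came from 1 of the 8 cells that had any, and the log2 ratio without that cell was 0.82. Cxcl3 was higher by 1.19 in 4T1M (5050 against 2208 CPM) and by 0.54 in 4T1P (2437 against 1672 CPM), short of 2-fold. Of 6 CXC chemokines assessed 3 passed 2-fold in both libraries, against 2.44% of all genes, with list medians of 1.17 and 1.11. With TMM factors 1 of 6 did so, beside 76 of all 5570 genes. Without the richest member cell of each gene 1 of 6 did so, beside 48 of 5570. The third of them, Pf4, had UMIs in 2 members of 4T1P.

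Among inflammatory effectors 6 of 18 genes assessed were at least 2-fold higher in both libraries, against 2.44% of all genes, and none was lower. In both libraries 17 lay above 0 (medians 0.67 and 0.83), as did 2031 of all 5570 genes assessed. With TMM factors 3 passed and 13 lay above 0 in both, beside 76 and 1264 of all 5570 genes. Ptgs2, the inducible cyclooxygenase of prostaglandin synthesis, stood at 2353 against 712 CPM in 4T1P and 1796 against 828 in 4T1M. F10, which encodes coagulation factor X, stood at 931 against 222 CPM and 933 against 375. Icam1, the adhesion ligand of beta-2 integrins, gave log2 ratios of 2.86 (2.43 to 3.27) and 1.12 (0.96 to 1.29), and Malt1, a scaffold of the CARD-BCL10 complex upstream of NF-kB, gave 1.59 and 1.18. Saa3, an acute phase serum amyloid A protein, and Arg1, the arginase that depletes arginine, also passed, but single cells held 37.9% and 86.8% of their UMIs in 4T1P, and without those cells the log2 ratios in 4T1P were 0.40 and -0.47. In 4T1M Saa3 was found in 58 members and Arg1 in 44.

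Il1b, the secreted relative of Il1a that lies 54.6 kb from it on chromosome 2, did not follow the gate to the same degree. It stood at 14465 CPM in members and 9527 in the other neutrophils of 4T1P (0.60, 0.52 to 0.68) and at 12384 and 9726 in 4T1M (0.35, 0.32 to 0.38). Il1rn, the antagonist that blocks the interleukin-1 receptor, was the 1 gene of 12 in the interleukin-1 family and inflammasome list to pass 2-fold in both libraries (2332 against 1000.3 CPM, and 2720 against 1205). No gene of the list passed with TMM factors. Over all genes 2.44% passed, or 76 of 5570 with TMM factors. The inflammasome sensor Nlrp3 gave 1.5 in 4T1P and 1.0 in 4T1M, just short of 2-fold. Il1r2, the decoy receptor, gave -0.26 (-0.61 to 0.07) and -0.23 (-0.35 to -0.11). List medians were 0.60 in 4T1P and 0.01 in 4T1M. With TMM factors they were 0.22 and -0.14, beside -0.37 and -0.05 over all genes.

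NF-kB subunits and feedback inhibitors lay slightly above the other neutrophils, 15 of 18 genes in both libraries beside 2031 of 5570 over all genes, with medians of 0.45 and 0.48. With TMM factors 11 of 18 did so, beside 1264 of 5570, and the medians were 0.08 and 0.33, beside -0.37 and -0.05 over all genes. The feedback inhibitors Nfkbia (0.89 and 0.64) and Tnfaip3 (1.36 and 0.91) had log2 ratios whose intervals lay above 0 without reaching 2-fold in both libraries. Ikbke, a kinase related to the I-kappa-B kinases, was the 1 gene of the list past 2-fold in both (1.70 and 1.83), on 4 UMIs in 4T1P. Over all genes 2.44% were at least 2-fold higher and 1.44% lower in both libraries. Counts of 0 or 1 in the short lists here are thus not read as results about those lists. Receptors and adaptors of TNF gave 0 higher and 1 lower of 10, the lower being Tnfrsf1a, TNF receptor 1 (-1.61 and -1.30), on 4 and 41 UMIs in members. Tnfrsf1b, TNF receptor 2, gave 0.85 (0.32 to 1.34) and 0.53 (0.34 to 0.71). Of 17 pattern recognition receptors 1 passed 2-fold in both, Clec5a, and of 12 other cytokines and growth factors 1, Hbegf, an EGF receptor ligand (3.53 and 1.18). The immediate-early genes, 0 of 23 past 2-fold, had medians of 0.11 and 0.08, and the glycolysis and hypoxia genes, 0 of 26, had 0.30 and 0.21. With TMM factors the 4T1P medians of both lists were -0.27 and -0.08, beside -0.37 over all genes.

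**Figure D4:**
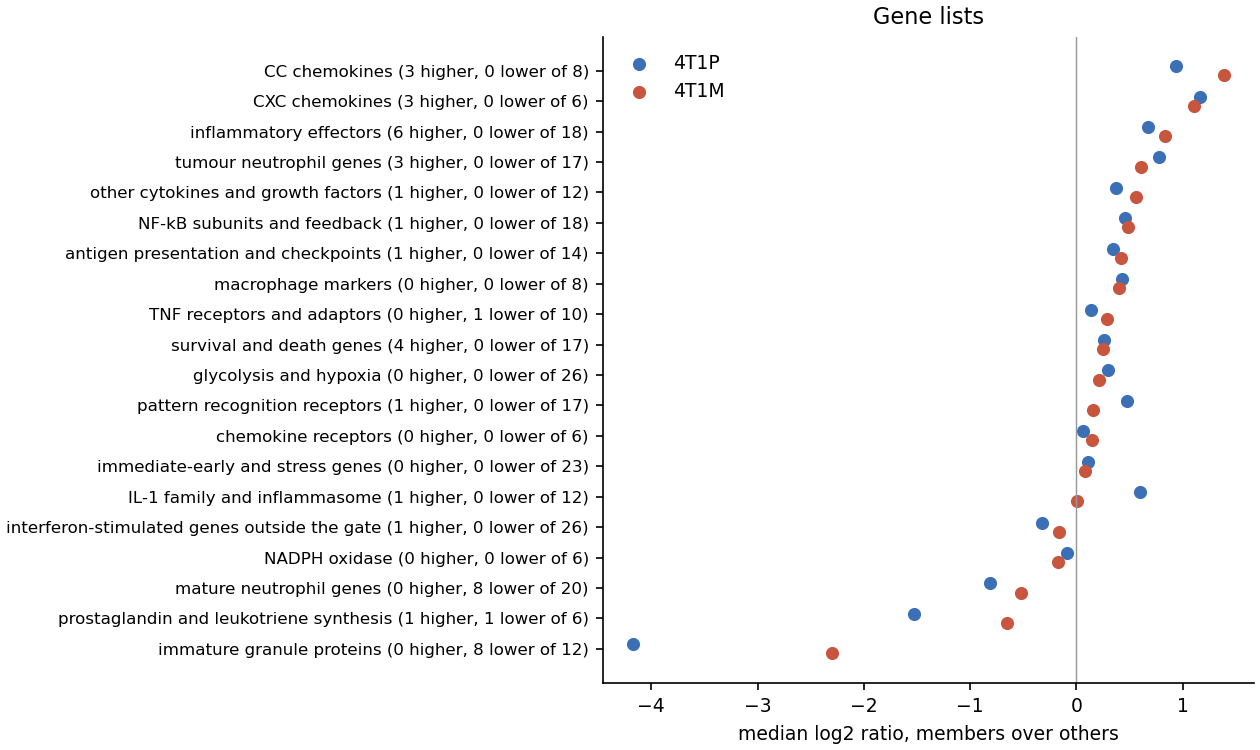
Median log2 ratio of members over other neutrophils for each list with at least 6 genes assessed, in 4T1P (blue) and 4T1M (red), with the number of genes at least 2-fold higher or lower in both libraries. Chemokine lists lie at the top, near 1 in both libraries, and immature granule proteins at the bottom, at -4.17 and -2.30.

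The survival genes of the Bcl2a1 cluster were among the highest ratios. Bcl2a1 proteins are relatives of Bcl2 that hold back mitochondrial cell death and are targets of NF-kB. Bcl2a1b stood at 1161 CPM in members and 184 in the other neutrophils of 4T1P (2.66, 2.34 to 2.96) and at 1112 and 363 in 4T1M (1.61, 1.5 to 1.73). Thinned to 1000 UMIs it was found in 60.9% of members and 13.1% of other neutrophils of 4T1P, and in 56.6% and 22.7% of 4T1M. T cells gave 8.57% and 5.06%. Bcl2a1a gave log2 ratios of 3.02 and 1.97 and Bcl2a1d 2.95 and 1.81. These paralogs are nearly identical, so the split of reads among them is uncertain. They lie together on chromosome 9 (GRCm38; Bcl2a1d at chr9:88723285-88731914, Bcl2a1a at chr9:88956900-88962419 and Bcl2a1b at chr9:89199209-89207827), and between them lies Gm2396 (chr9:88878994-88937342), a noncoding transcript with 4.00 and 2.15. Mthfs, the next gene past Bcl2a1b (chr9:89210676-89377713), gave 1.63 and 1.29. Cflar, an inhibitor of caspase-8, stood at 952 against 297 CPM in 4T1P (1.68) and 1077 against 495 in 4T1M (1.12). The list held 4 higher and 0 lower of 17 genes, beside 2.44% and 1.44% of all genes. Its medians were 0.26 and 0.25, and the 4T1P median was -0.11 with TMM factors, beside -0.37 over all genes. Mcl1, on which neutrophils depend for survival, lay closer to 0 (0.13, -0.03 to 0.28, and -0.14, -0.20 to -0.09).

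Car4, a membrane-bound carbonic anhydrase, ranked highest among genes of at least 50 CPM, by the ratio in the library where it was nearer to 0. It gave 2.51 (1.08 to 3.72) in 4T1P and 2.44 (2.12 to 2.76) in 4T1M. It was a sparse gene, at 73.2 against 12.9 CPM and 180 against 33.1, found in 2 and 33 members. In 4T1P 1 cell held 71.4% of its 7 UMIs, and without that cell the log2 ratio was 0.78. Clec4n (Dectin-2), a C-type lectin for fungal mannans, gave 2.0 and 1.49, and Creb5, a transcription factor of the CREB and ATF family, 2.47 and 1.88. Creb5 had 9 UMIs in the 4T1P members, 66.7% of them in 1 cell, and the 4T1P log2 ratio without that cell was 1.05. Schip1 gave 1.60 (0.65 to 2.43) and 1.05 (0.77 to 1.33), and Anxa4, an annexin, 2.19 and 1.55. The transcripts 4833438C02Rik (2.18 and 1.54), A930007I19Rik (1.60 and 1.61) and Gm20186 (1.63 and 1.58) completed the 15 highest ranks with F13a1 and Mmp12. Without their richest member cell, Gm20186 gave 0.92 and Schip1 0.98 in 4T1P, short of 2-fold. In Mmp12, a macrophage elastase, 1 cell held 75% of the members' UMIs in 4T1P and 83.6% in 4T1M, and without it the log2 ratios were -0.21 and -0.86. In F13a1, a coagulation factor subunit of monocytes, 1 cell held 60.0% of 5 UMIs in 4T1P and 38.8% in 4T1M. Without it the log2 ratios of F13a1 were 0.87 and 0.96, short of 2-fold.

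Other lists held few genes past 2-fold, where 2.44% of all genes were higher and 1.44% lower in both libraries. Of 17 genes known from tumour neutrophils 3 were higher in both libraries, Car4, Clec4n and Icam1 (medians 0.78 and 0.60). Siglecf, a sialic acid receptor of long-lived tumour neutrophils in lung models, had 1 UMI in the 4T1P members and stood at 30.8 against 9.07 CPM in 4T1M (1.76, 1.02 to 2.47). Of 14 antigen presentation and checkpoint genes 1 was higher in both, the checkpoint receptor Havcr2, and Cd274, which encodes PD-L1, gave 0.39 (0.05 to 0.73) and 0.49 (0.39 to 0.60). The medians of that list were 0.35 and 0.42, and the 4T1P median was -0.03 with TMM factors, beside -0.37 over all genes. In prostaglandin and leukotriene synthesis Ptgs2 was higher and Alox5ap, which presents arachidonic acid to 5-lipoxygenase, lower (-1.35 and -1.19) of 6 genes. Chemokine receptors and NADPH oxidase subunits gave 0 of 6 each in either direction.

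Camp, Ngp and Ltf, transcripts of secondary granule proteins, were much lower in inflammatory neutrophils. Camp, the cathelicidin of secondary granules, had 0 UMIs in the 95610 UMIs of the 4T1P members, against 3717 CPM in the other neutrophils, which puts it at least 118-fold lower against a floor of 3 UMIs. In 4T1M it had 5 UMIs in 5 members, 5.91 against 2188 CPM (log2 ratio -8.53, -10.2 to -7.31). Ngp, another secondary granule protein, stood at 105 against 4408 CPM (-5.40) and 29.6 against 2962 (-6.65), and Ltf, lactoferrin, gave -4.43 and -3.98. Of 12 immature granule genes assessed 8 were at least 2-fold lower in both libraries and none higher, beside 1.44% of all genes. The list medians were -4.17 and -2.30, or -1.88 and -2.18 with genes at 0 UMIs set to the floor. The summed level of the list was 2092 CPM in members and 17206 in the other neutrophils of 4T1P, and 1874 and 11528 in 4T1M. Against only other neutrophils with Camp, Ngp and Ltf under 0.1% of UMIs and below the interferon limit, 5 genes of the list could be assessed, of which 2 were lower in both libraries, with medians of -0.56 and -0.77. Over all genes 47 of 4933 were lower there, with medians of -0.07 and 0.03. The same genes were carried by few of the other neutrophils: 6.79% of them in 4T1P and 6.16% in 4T1M had Camp, Ngp and Ltf at 0.1% of UMIs or more, against 1 of 23 and 4 of 226 members.

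Genes of circulating neutrophils were lower too. Retnlg, a resistin-like protein of blood neutrophils, stood at 805 CPM in members and 7723 in the other neutrophils of 4T1P (-3.26, -3.60 to -2.94) and at 755 and 6222 in 4T1M (-3.04, -3.16 to -2.93). Thinned to 1000 UMIs it was found in 13.0% of members against 56.5% of other neutrophils in 4T1P, and in 26.5% against 56.0% in 4T1M. Ly6g, which encodes one of the antigens used in the isolation, stood at 52.3 against 319 CPM and 21.3 against 261, on 5 and 18 UMIs in members. Anxa1, the pro-resolving annexin, gave -3.15 and -2.53, Pglyrp1, a peptidoglycan-binding granule protein, -2.68 and -2.71, and Ifitm6 -4.25 and -4.51. Aldh2 gave -2.58 and -2.86. Of 20 mature neutrophil genes 8 were at least 2-fold lower in both libraries, beside 1.44% of all genes. In both libraries 17 lay below 0, beside 1596 of all 5570 genes (list medians -0.81 and -0.52). Csf3r (-0.65 and -0.35), Cxcr2 (-0.39 and -0.52) and Hdc (-0.10 and -0.22) lay closer to 0, so the lineage receptors were within 2-fold of the other neutrophils in both libraries.

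Some of the lower genes depended on which neutrophils were the reference. Against only those other neutrophils below the interferon limit with Camp, Ngp and Ltf under 0.1% of UMIs (495 cells of 4T1P and 1168 of 4T1M), 78 genes were at least 2-fold higher and 47 lower of 4933 assessed, 76 and 41 of them among the earlier calls. There Ccl3 gave 1.96 and 1.31, Bcl2a1b 2.62 and 1.54, Car4 2.21 and 2.18, Icam1 2.63 and 1.07, and Retnlg -2.97 and -2.85, while Lcn2 went from -1.88 and -1.67 to -0.56 and -0.77. Cxcl2 fell just short of 2-fold, at 0.96 and 0.93. Ly6g gave -0.73 (-2.37 to 0.53) and -2.13 (-2.90 to -1.45).

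Along the gate itself the same genes were followed in classes of cells. Neutrophils below the interferon limit were split by their gate share into 7 classes. Ccl3 went from 2747 CPM in the 239 cells of 4T1P without a gate UMI through 8778 in the class of 0.2% to 0.3% to 22128 in the 10 cells at 0.75% or more, and in 4T1M from 3318 in 348 cells through 8916 to 18964 in 117 cells. Cxcl2 went from 25785 to 84215 CPM in 4T1P and from 26920 to 92631 in 4T1M, and Bcl2a1b from 99.2 to 2046 and from 157 to 1290. Retnlg was at 10042 and 9244 CPM in cells with a gate share above 0 and under 0.1%, and at 117 and 420 in those at 0.75% or more. Camp peaked at 7882 and 3523 CPM in the cells under 0.1% and was near 0 from 0.3% upward in both libraries. Car4 in 4T1M stood between 18.9 and 72.8 CPM in the classes under 0.5%, with 26.7 (15.5 to 42.7) in the last of them. It stood at 211 CPM (171 to 258) in that of 0.5% to 0.75% and at 143 above it. In 4T1P Car4 stood at 136 CPM on 10 UMIs in the class of 0.3% to 0.5%. The next class had 0 UMIs of it, and the highest had 205 CPM on 7 UMIs. Saa3 and Cxcl1 did not rise steadily in 4T1P. From 0.2% upward Saa3 stood at 2176, 586, 456 and 3040 CPM there and Cxcl1 at 1217, 1104, 700 and 2368. In 4T1M those classes gave 1320, 1154, 1333 and 2006 for Saa3 and 1092, 1171, 1289 and 1418 for Cxcl1. The 3 highest classes of 4T1P held 19, 13 and 10 cells, so their intervals are wide. The gate share has UMIs of the same cell in its denominator, and cells without a gate UMI were shallower (median 2501 and 2151 UMIs against 3309.5 and 3002 in the highest class).

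**Figure D5:**
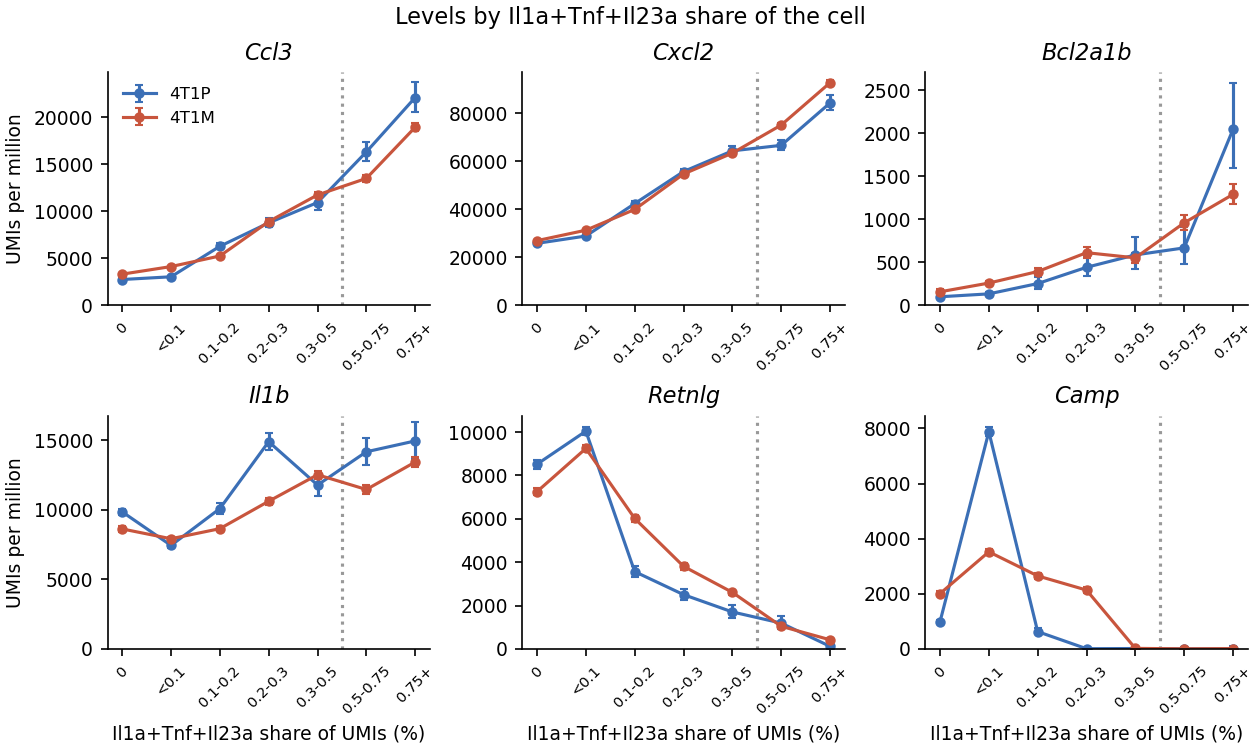
Levels of 6 genes in CPM (y axis) in neutrophils below the interferon limit, grouped by the Il1a+Tnf+Il23a share of their UMIs (x axis, percent), in 4T1P (blue) and 4T1M (red) with 95% exact Poisson intervals. Ccl3, Cxcl2 and Bcl2a1b are highest and Retnlg lowest in the highest class of both libraries, and the dotted line marks the 0.5% threshold.

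Across single neutrophils thinned to 1000 UMIs, Il1a went most closely with Cxcl2 (Spearman's rho 0.37 over 612 cells of 4T1P and 0.46 over 1682 of 4T1M) and Ccl3 (0.36 and 0.40) among the 13 genes compared with it. With Tnf it gave 0.15 and 0.28, with Il1b 0.14 in both, with Isg15 0.01 and 0.03, and with Retnlg -0.16 and -0.26. The cells of a library share its capture and its free RNA, so these are descriptions with no test.

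Interferon-stimulated genes outside the rule were compared although the rule itself limits such genes in members and not in the other neutrophils. Of 26 assessed, 1 was at least 2-fold higher in both libraries (Gbp5, a guanylate-binding protein, 1.74 and 1.06), beside 2.44% of all genes. In both libraries 15 lay below 0 (1596 of the 5570 genes assessed did), and the medians were -0.32 and -0.16. Against the reference without interferon-high and granule-rich cells, 8 of 23 lay above 0 in both and 7 below, with medians of -0.18 and 0.10. Over all genes 1558 of 4933 lay above and 1550 below, with medians of -0.07 and 0.03, so the list was close to all genes there. The interferon-high neutrophils, which the rule set aside, reached the gate in 3 of 54 cells of 4T1P (5.56%, 1.16% to 15.4%) and 36 of 204 of 4T1M (17.6%, 12.7% to 23.6%), against 4.12% and 15.2% of the neutrophils below the limit. The intervals overlap but cover counting error only, and the difference was not tested. Of 1581 genes assessed against the interferon-high cells, 37 were at least 2-fold higher in members of both libraries and 68 lower. Of those, 16 and 9 had the same call against all other neutrophils. Against the interferon-high cells, members held more Cxcl1 (2.90 and 1.36), Bcl2a1b (1.64 and 1.18) and Ccl3 (1.29 and 0.96), and less Retnlg (-1.87 and -1.5) and Isg15, which is in the rule. Ly6e gave -1.53 (-2.93 to -0.35) and -0.54 (-0.81 to -0.28) in that comparison and 0.08 (-1.26 to 1.15) and 0.72 (0.50 to 0.93) against all other neutrophils.

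Markers of other cell types were low in the members, although the macrophage markers summed to more than in the other neutrophils of both libraries. The 13 macrophage markers summed to 512 CPM in members and 403 in the other neutrophils of 4T1P, and to 829 and 537 in 4T1M. Of the 8 assessed, 0 were at least 2-fold higher in both libraries and 6 lay above 0 in both (medians 0.43 and 0.40), beside 136 and 2031 of all 5570 genes. With TMM factors 4 of the 8 lay above 0 in both libraries and 3 below, beside 1264 and 2347 of the 5570 genes. Apoe, limited by the rule, stood at 471 against 209 and 360 against 256 CPM. Whether macrophage transcripts and the chemokine genes rise in the same cells was not measured, and their part in the result was not tested. With the C1qa, C1qb, C1qc and Apoe limit at 0.1% the count of higher genes was 126. T and NK cell markers summed to 10.5 against 31.6 CPM and 5.91 against 27.6, and dendritic cell, mast cell, basophil and eosinophil markers to at most 5.91 CPM in members. B cell markers summed to 20.9 against 28.2 CPM in 4T1P and 67.4 against 51.4 in 4T1M, and tumour epithelial markers to 41.8 against 75.2 and 23.7 against 15.2. Fibroblast and endothelial markers summed to 10.5 against 23.3 and 58.0 against 27.4. The B cell, the tumour epithelial, and the fibroblast and endothelial lists were thus lower in members of 4T1P and higher in members of 4T1M. None of 70 and 80 T cells reached the gate, which allows up to 5.13% and 4.51%.

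Within 4T1M, members with more UMIs of Tnf than of Il1a (49 cells, called led by Tnf) were compared with those with more of Il1a than of Tnf (176 cells). Of 1051 genes with at least 100 UMIs in the 4T1M members, 10 were at least 2-fold higher and 22 at least 2-fold lower in the cells led by Tnf. Saa3 stood at 4247 against 1008 CPM (log2 ratio 2.08, 1.92 to 2.23) and Ccl7, a monocyte chemokine, at 731 against 209. The haemoglobin genes Hba-a1, Hba-a2 and Hbb-bs led the list, and 1 cell held 84.7% of the Hbb-bs UMIs of all 4T1M members. Among the lower genes were the class II genes Cd74 (216 against 462 CPM), H2-Aa (77.9 against 167) and H2-Eb1 (59.9 against 149), and Oasl1 (53.9 against 206). In 4T1P, with 9 and 14 such cells, only single genes were compared. Saa3 gave 1.86 (1.31 to 2.42) there, while Cxcl1 gave 2.52 (1.90 to 3.17) against 0.16 in 4T1M and Icam1 2.89 (1.97 to 3.94) against 0.36. The cell with 54.8% of the Cxcl1 UMIs and that with 37.9% of the Saa3 UMIs are among these few cells, and the difference between the libraries was not tested.

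Between the libraries, inflammatory neutrophils of 4T1M and 4T1P differed mostly in sparse genes. Of 3823 genes assessed, 503 (13.2%) were at least 2-fold higher in 4T1M members and 228 (5.96%) at least 2-fold lower, with a median log2 ratio of 0.03. The 4T1P members held 95610 UMIs against 845363 in 4T1M, so most of these genes rest on a handful of UMIs in 4T1P. The abundant chemokines were close, at -0.20 for Ccl3, -0.19 for Ccl4, 0.19 for Cxcl2 and 0.06 for Cxcl1, as was Bcl2a1b at -0.06. In the other neutrophils the same 5 genes were higher in 4T1M, by 0.53, 0.73, 0.30, 0.54 and 0.98. Cxcl3 gave 1.05 in members and 0.40 in others. Whether the library difference itself differs between members and others was not tested.

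Ccl7, Ccl2 and some interferon-induced genes stood higher in 4T1M members, on few UMIs in 4T1P. Ccl7 gave 4.89 (2.40 to 10.2) with UMIs in 15 members of 4T1M and 1 of 4T1P, and Ccl2 3.80 (2.44 to 5.68) with 22 and 2. Cxcl10, an interferon-induced chemokine, stood at 212 against 20.9 CPM (3.34), Ifi27l2a at 595 against 83.7 (2.83), and Slfn5 at 170 against 20.9 (3.03), where the 4T1P values of Cxcl10 and Slfn5 rest on 2 UMIs each. Other neutrophils were also higher in 4T1M for these genes, by 0.84 for Cxcl10, 1.21 for Ifi27l2a, 1.5 for Slfn5, 0.60 for Ccl7 and 0.39 for Ccl2. The 26 interferon-stimulated genes had a median of 0.59 between the libraries within members. B4galt1, a galactosyltransferase, gave 3.60 (1.09 to 8.91), and Mmp8 2.58 (0.70 to 5.65). Areg (3.96), an EGF receptor ligand, had 51.9% of its 4T1M UMIs in 1 cell. Hbb-bs gave 6.22, and Hba-a1, at 0 UMIs in 4T1P, at least 2.65 on the log2 scale, with 1 cell holding 84.7% and 85.6% of their UMIs in 4T1M. In the other direction Hbegf gave -2.10 (-2.72 to -1.46), at 345 CPM in 4T1P members and 80.4 in 4T1M, and Tnfaip6, a hyaluronan-binding protein, -1.78. Ngp gave -1.82. In the 4T1P members 1 cell held 75% of the Tnfaip6 and 80.0% of the Ngp UMIs, and without the richest cell of each library Tnfaip6 stood at 34.6 CPM in 4T1P and 32.0 in 4T1M, and Ngp at 23.1 and 17.8. Other genes lower in 4T1M members were Ccnt2 -2.20, Cdc73 -1.85, Crybg3 -1.88, B930036N10Rik -2.47, Ccno -3.47, D10Wsu102e -3.49 and Gm43653 at most -5.26, with 1 cell holding 96.4% of the D10Wsu102e and 100% of the Gm43653 UMIs in 4T1P.

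Genes beside the 3 gate genes were examined because unspliced or overlapping transcripts can be counted for a neighbour. Il1a lies at chr2:129299610-129309972, Tnf at chr17:35199381-35202007 and Il23a at chr10:128296139-128298752 (GRCm38, all on the minus strand). Of 27 genes assessed within 200 kb, 3 were at least 2-fold higher in both libraries, beside 136 of all 5570 genes (2.44%). Gm14023, a noncoding transcript, overlaps Il1a on the opposite strand and gave 3.22 and 1.97, and Ckap2l, 2.40 kb from Il1a on the same strand, gave 1.41 and 1.68. Whether their UMIs came from Il1a transcripts was not tested. Cs, which encodes citrate synthase and lies 39.0 kb from Il23a, gave 2.38 and 1.38. Il1b, Ltb beside Tnf, and Stat2 beside Il23a were not among them.

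In the promoters, the motif matches shown for those 6 genes were set against all genes. Of 27025 RefSeq genes, 8.18% held a match to the NF-kB consensus in the window, 1.43% a match to a stricter form contained in it (GGGA, any 2 bases, TTCC), and 7.93% an AP-1 match, each on either strand. Among the 4466 genes assessed with a window the shares were 11.2%, 1.64% and 5.22%. Of the 113 higher genes with a window, 22 (19.5%) held the consensus, 7 (6.20%) the stricter form and 10 (8.85%) AP-1, and of the 65 lower genes 7 (10.8%), 1 (1.54%) and 5 (7.69%) did. Cxcl1, Cxcl2, Car4, Gbp5, Anxa4, Mmp12, Gm14023 and Ckap2l were among the higher genes with the consensus, while Ccl3 and Icam1 held none of these motifs in this window. A match is a description of the sequence and not a binding site, no match says only that the letters are not in this window, and neighbours with a shared window count separately.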

How the data were processed

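Per the file headers and the deposited labels, the authors aligned the reads of 2 10x Genomics libraries with Cell Ranger 4.0.0 to mouse mm10 (GRCm38) and deposited raw counts of UMIs per gene and barcode. The study's methods name a later Cell Ranger version. The deposited counts summed to 21855657 UMIs in 4T1P (2947 barcodes) and 24303957 in 4T1M (5004 barcodes), of which the filters kept 12948585 and 19302483. UMIs of the members and of the other neutrophils were summed per library and divided by the library's sum for that group, giving counts per 1000000 UMIs (CPM). Log2 ratios carry exact conditional intervals, levels exact Poisson and shares Clopper-Pearson intervals, all at 95%. Genes with at least 20 UMIs over both groups in each library were assessed, and a group at 0 was set to a floor of 3 UMIs. Cells are not replicates, so no p-value was computed, and a gene was counted at 2-fold or more in the same direction in both libraries.

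Genes were named by rule: the gate genes, the markers given with the gate, the 15 highest and 10 lowest ratios at 50 CPM or more, the 10 highest and 10 lowest between libraries at 100 CPM or more, and examples from 27 lists. Other genes were named after their values were seen, and a few genes that the rule gives are not reported here. Members and lists were chosen with earlier results of these data known. Doublets were not removed in the main comparison, and removal of the highest Scrublet scores was an alternative, since Scrublet's automatic threshold called 1 barcode and 0 barcodes. Scripts were tested on simulated data. Alternatives were other gates, filters, references and scalings by edgeR 4.0.16 and DESeq2 1.42.0, some chosen after seeing the data. Python 3.11.15, scipy 1.17.1, scanpy 1.11.5 and R 4.3.3 were used. Of 32285 gene IDs 32158 were found in the GENCODE annotation of GRCm38, and promoter windows came from RefSeq.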

Additional observations from a re-analysis of the deposited data

Results flagged for a closer look

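Some cells outside the definition also reached 0.5% of UMIs from Il1a, Tnf and Il23a. Retained cells with S100a8 and S100a9 under 1.5% and outside the macrophage gate did so in 10.6% of 454 cells in 4T1P (7.90% to 13.8%) and 27.05% of 891 in 4T1M (24.2% to 30.1%). The 48 and 241 cells that did so differed from the inflammatory neutrophils in part. Of 3467 genes assessed between them, 72 were at least 2-fold higher in members of both libraries and 624 at least 2-fold lower. Only 1 and 5 of those had the same call against the other neutrophils. The genes called higher in members above were thus mostly not shown to be particular to members. Csf3r stood at 40.2 and 275 CPM in the 48 and 241 cells against 460 and 683 in members, and Cxcr2 at 14.8 and 79.8 against 251 and 273. Cxcl1 stood at 4456 and 6317 CPM and Thbs1, the matrix protein thrombospondin-1, at 550 and 525, against 52.3 and 23.7 in members. No cell type is given to them here.

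Cells of the macrophage gate reached the threshold in 4.80% of 646 cells in 4T1P and 7.0% of 814 in 4T1M. Barcodes outside the filters did so in 1.97% of 1221 and 4.28% of 1543. Interferon-high neutrophils did so in 5.56% and 17.6%. In each of these the 4T1M share was the higher one, and the intervals of the libraries overlapped in the macrophage gate (3.28% to 6.74% and 5.35% to 8.98%) and in the interferon-high neutrophils. None of these differences was tested, with 1 library per line.

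A few genes lay on opposite sides of the other neutrophils in the 2 libraries, and these differences were not tested either. Of the genes assessed 14 had opposite signs with both counting intervals off 0, and 3 of them were in a list or named. G0s2, an inhibitor of triglyceride breakdown abundant in neutrophils, gave 0.18 in 4T1P and -0.31 in 4T1M. Jun, a subunit of AP-1, gave 1.0 and -0.36, with 58.3% of its UMIs in 4T1P members from 1 cell and -0.12 without it. Ccno, a cyclin-like gene, gave 2.85 and -1.27 on 10 and 8 UMIs in members.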

How the results depend on the processing

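The share of inflammatory neutrophils was higher in 4T1M than in 4T1P under each gate and filter tried. With the gate at 1% of UMIs it was 0.980% and 4.15%, with 49 genes lower, and at 0.3% it was 6.86% and 21.6%. Without the interferon limit the 4T1M share was 15.5%. TMM and DESeq2 factors each gave 76 genes higher and 162 lower in members, and 143 and 149 lower between the libraries. Without the filter on low counts 443 genes were higher in members and 1401 lower in 4T1M members, where single UMIs count. Of the alternatives chosen after seeing the data, S100a8 and S100a9 at 0.5% gave a 4T1M share of 15.2%, the reference without granule-rich and interferon-high cells gave 78 higher and 47 lower, and leaving out each gene's richest member cell gave 48 higher, 128 lower and 84 lower between the libraries. Of 641 log2 ratios of named genes under alternatives, 518 stayed within their counting interval, 117 left it and 6 changed sign. With the gate at 1% these were Cxcl3 in 4T1P (-0.23) and F13a1 in 4T1M (-0.37), and with thinned cells Mmp12 in 4T1P (-0.069). Without the richest cell they were Mmp12 in 4T1P (-0.21) and, between the libraries, Hba-a1 (-0.16) and D10Wsu102e (0.95). The Hba-a1 value sets 28.5 CPM in 4T1M against the floor of 3 UMIs for 0 UMIs in 4T1P, so its sign comes from the floor. The cause of the other sign changes was not tested, except that leaving out the richest cell takes away a gene's highest count by construction. Thinned to 1000 UMIs before the gates, 20 of 23 and 181 of 226 members were chosen again. Scrublet's highest scores included 1 and 5 members. No paired analysis was possible because each line has 1 library. The 95610 UMIs of the 23 members of 4T1P limit every comparison that uses that library.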
